A study of Mus musculus with 3 samples.

Results

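The genes described are 10 that encode claudins and other components of the tight junction, namely Cldn3, Cldn4, Cldn6, Cldn7, Ocln, Marveld3, Tjp1, Tjp3, Cgn and F11r. They were chosen by name, with earlier results of these data known. Every probe set annotated to any of these symbols was read across the arrays. This gave 18 of 34945 probe sets with a single gene symbol, and 10 of 18193 genes. A probe set is a group of short oligonucleotides on the array against the same transcript. Expression was measured in mouse embryos of the ICR strain at E7.5, during gastrulation, in endoderm, in mesoderm and in epiblast. The embryonic region was dissected free of Reichert's membrane and of the extra-embryonic region, and the layers were parted after trypsin and pancreatin treatment, with the neuroectoderm and the primitive streak kept in the epiblast sample. RNA of each layer went onto 1 Affymetrix oligonucleotide array of the mouse genome, so no difference between layers has a replicate check and no test was possible. The sources used here do not say how many embryos lie behind an array.

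Tight junctions seal the space between neighbouring epithelial cells near the apical surface. Claudins form the strands of the seal and set which ions and solutes pass, occludin and the other MARVEL proteins and the junctional adhesion molecules lie in the same membrane domain, and the ZO proteins and cingulin form a cytoplasmic plaque that ties the strands to actin. In the gastrulating embryo the epiblast and the endoderm are epithelia, while mesoderm cells leave the epiblast through the primitive streak and lose their epithelial junctions.

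The intensities were deposited in linear units, and they are listed in the order endoderm, mesoderm and epiblast. An intensity of 80.6, the median over all probe sets and arrays, served as a floor. Calls used values below it as deposited, while folds took such a value only as a bound. A gene was called between a pair of layers where its intensities differed at least 2-fold and the higher of them was above the floor. A fold against a value below the floor is given as "at least N-fold", with that value raised to the floor. Where a gene had several probe sets, the one with the highest mean log2 intensity stood for it. In these samples of whole tissue, fewer cells of a type and less RNA per cell cannot be told apart. As a yardstick for measurement error, log2 differences between layers varied among probe sets of the same gene in 5536 genes with several, with a pooled SD of 0.40 between endoderm and epiblast, 0.27 between mesoderm and epiblast and 0.39 between endoderm and mesoderm. This spread is not a replicate error.

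The layers carried the marker genes of their labels. Over the 45037 probe sets the median intensities of the arrays were 79.9, 79.9 and 82.2. The summed intensity of 5 endoderm markers was 26479, 1893 and 739, that of 6 mesoderm markers was 856, 9218 and 1157, and that of 5 epiblast markers was 906, 892 and 7380. Of the endoderm markers, Cer1 read 1606 in mesoderm, where Foxa2, Trh and Spink1 were below the floor. Of the epiblast markers, Utf1 was the brightest in endoderm (578) and in mesoderm (520). The endoderm also held visceral endoderm markers, 8 of 8 of them above the floor with a summed intensity of 47202. They summed to 966 in mesoderm and 886 in epiblast, with 4 of 8 above the floor in each. Rhox5 was the brightest of them there, at 403 in mesoderm and 367 in epiblast. Afp, Apob, Cubn and Amn were below the floor in both. Of other epithelia that could add junction transcripts, surface ectoderm markers summed to 480, 478 and 967 with Trp63 and Krt14 below the floor in every layer and Tfap2a (90.4, 109 and 343) and Dlx5 (64.8, 65.8 and 220) highest in epiblast. Markers of extra-embryonic ectoderm and trophoblast summed to 2939, 2294 and 3314. Of 9 such markers on the array, 7, 6 and 6 were above the floor. Elf5 and Tpbpa were below the floor in every layer. Sox21 (545, 474 and 483) and Hand1 (248, 323 and 325) were above it in every layer. Of this list, Cdx2 was the brightest at 1283, 932 and 1817. The keratin gene Krt7, at 367, 35.05 and 80.1, exceeded each other layer at least 4.55-fold in endoderm. The part of any of these cell types in the results for the junction genes was not tested.

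Most of the junction genes were dim in mesoderm and highest in endoderm. Of the 10 genes, 7 (Cldn4, Cldn6, Cldn7, Ocln, Marveld3, Cgn and F11r) were called lower in mesoderm than in both other layers, against 1.61% of the 12785 genes above the floor in any layer. In the 10 genes, Cldn3 and Tjp1 stood apart from the rest, with differences of less than 1.5-fold between any layers in the probe sets that stand for them. In the values as deposited, the order endoderm over epiblast over mesoderm was read for 9 of 10, all but Cldn3, and for 21.1% of the 12785 genes. In Tjp3 both epiblast and mesoderm were below the floor, so their order is not known. Cldn4, Marveld3 and Tjp1 were not called between endoderm and epiblast. The sign of that difference turned in Marveld3 and Tjp1 under quantile normalization and centring of the arrays.

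**Figure D1:**
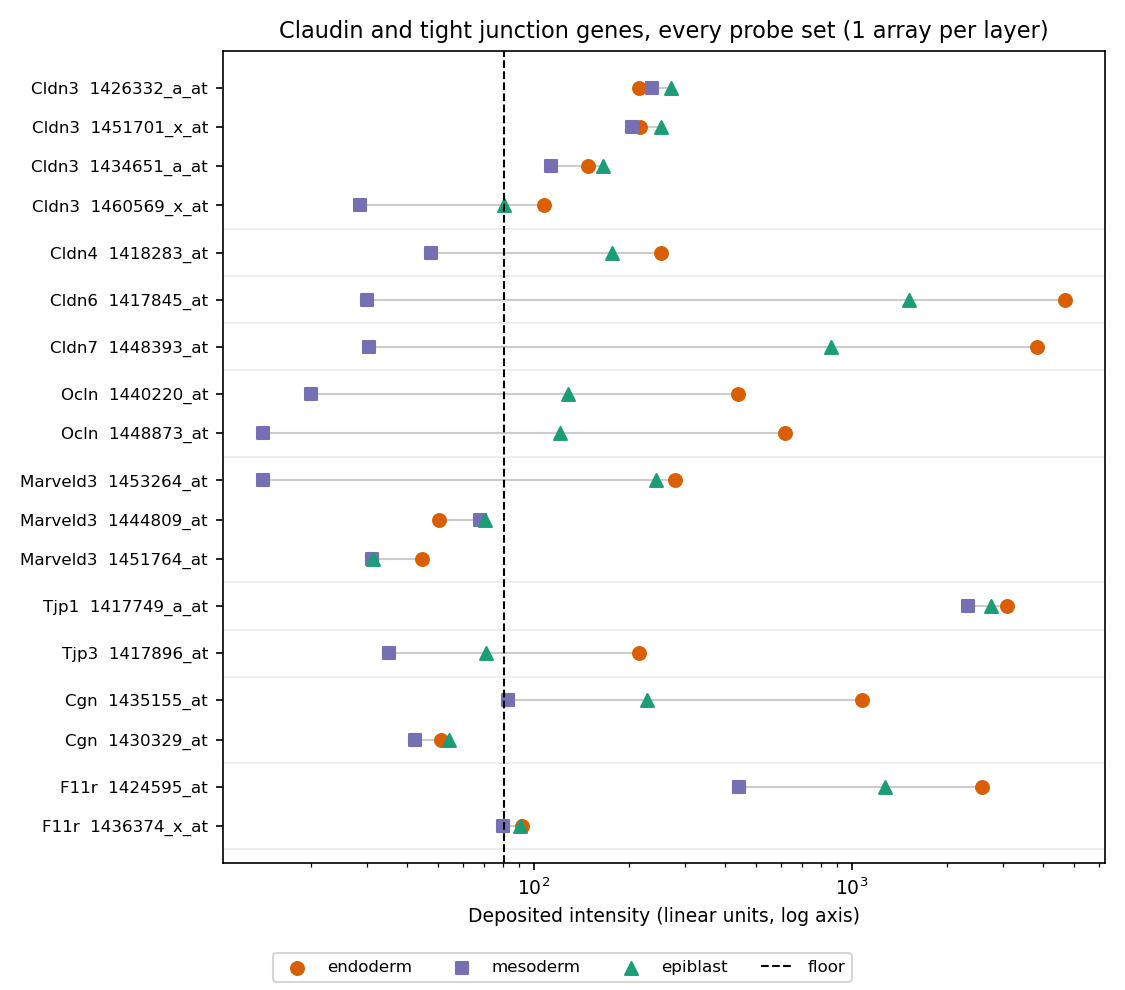
Deposited intensity (horizontal log axis, linear units) of each of the 18 probe sets of the 10 genes, 1 point per layer and array, with the floor of 80.6 as a dashed line. The mesoderm points of Cldn4, Cldn6, Cldn7, Ocln, Tjp3 and the brightest Marveld3 probe set lie left of the floor, and the points of Tjp1 lie close together between 2330 and 3076.

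Cldn6 and Cldn7 showed the widest differences between layers. Cldn6 encodes a claudin of embryonic epithelia, and its only probe set read 4676 in endoderm, 30.1 in mesoderm and 1510 in epiblast. The epiblast was at least 18.7-fold and the endoderm at least 58.0-fold above mesoderm, and the endoderm was 3.10-fold above epiblast. Once dim values had been set to the floor, 3 of 12338 genes were further below the epiblast in mesoderm than Cldn6, and 9 of 12426 were further above mesoderm in endoderm.

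Cldn7, a claudin found in many epithelia along the lateral membrane, also had a single probe set. Its intensities were 3829, 30.45 and 863, so that mesoderm was again below the floor. The epiblast was at least 10.7-fold and the endoderm at least 47.5-fold above mesoderm, and the endoderm was 4.44-fold above epiblast. For this gene, 9 of 12338 genes were further below the epiblast in mesoderm and 10 of 12426 further above mesoderm in endoderm.

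Cldn4, a claudin that tightens epithelia against cations, was dimmer, at 252, 47.5 and 176. Against mesoderm, endoderm was at least 3.13-fold and epiblast at least 2.18-fold higher, and the 1.43-fold excess of endoderm over epiblast is below the limit for a call. Cldn3 encodes another sealing claudin and lies next to Cldn4 in the RefSeq gene order of the mouse (GRCm38.p6). It was the exception among the claudins described, since its leading probe set read 215, 235 and 271. The next probe sets of Cldn3 read 216, 204 and 251, and 148, 113 and 165. The fourth and dimmest read 108, 28.6 and 81.05, and in the values as deposited it met the limit for a call, lower in mesoderm by 3.77-fold against endoderm and 2.84-fold against epiblast. The mesoderm value of that probe set was below the floor, which bounds these folds only at 1.34-fold and 1.01-fold. In the other 3 probe sets mesoderm was above the floor and no pair of layers was called.

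The sequences before the annotated transcription starts of 4 genes are shown because they set a flat gene beside its neighbour with low mesoderm signal (Cldn3 and Cldn4), and add the gene furthest below epiblast in mesoderm (Cldn6) and the adhesion molecule F11r. They are the 250 bases before the start in RefSeq (GRCm38.p6), and each of these genes has 1 start in that table. The Cldn3 window is chr5:134985964-134986213 on the plus strand, that of Cldn4 chr5:134946935-134947184 on the minus strand, that of Cldn6 chr17:23679115-23679364 on the plus strand and that of F11r chr1:171437311-171437560 on the plus strand. Capitals mark matches to the E-box letters CACCTG or CAGGTG, each the reverse complement of the other, which are bound by repressors of the Snail and Zeb families.
Cldn3: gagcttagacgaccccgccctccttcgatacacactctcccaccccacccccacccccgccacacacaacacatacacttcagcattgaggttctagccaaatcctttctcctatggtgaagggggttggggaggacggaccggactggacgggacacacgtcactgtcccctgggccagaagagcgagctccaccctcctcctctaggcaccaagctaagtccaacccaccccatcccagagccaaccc
Cldn4: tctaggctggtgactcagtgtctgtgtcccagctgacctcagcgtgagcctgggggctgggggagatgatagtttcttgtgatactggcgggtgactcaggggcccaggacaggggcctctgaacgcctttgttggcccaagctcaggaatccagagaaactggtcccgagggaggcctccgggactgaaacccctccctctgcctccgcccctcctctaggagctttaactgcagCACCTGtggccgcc
Cldn6: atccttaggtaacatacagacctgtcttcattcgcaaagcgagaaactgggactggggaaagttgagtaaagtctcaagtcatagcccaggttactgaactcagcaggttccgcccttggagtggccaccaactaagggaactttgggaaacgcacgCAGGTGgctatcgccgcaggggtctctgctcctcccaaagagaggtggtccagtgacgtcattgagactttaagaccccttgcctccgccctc
F11r: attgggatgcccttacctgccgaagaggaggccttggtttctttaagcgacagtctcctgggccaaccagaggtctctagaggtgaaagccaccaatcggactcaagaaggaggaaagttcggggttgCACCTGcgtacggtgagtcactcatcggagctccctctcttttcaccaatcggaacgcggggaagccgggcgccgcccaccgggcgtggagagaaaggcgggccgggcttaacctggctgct

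Of the 10 genes, 9 had promoter windows in RefSeq, 12 windows in all. The E-box letters were present in 7 windows of 6 genes, and in 17.2% of the 32851 windows of the same length over all genes. The match lay 14 bases before the start in Cldn4, at -93 in Cldn6 and at -122 in F11r, counted from -1 at the base next to the start to the first base of the match. Windows before the second start of Cldn7, with matches at -97 and -57, and of Ocln, with matches at -213 and -68, each held 2, as did 2.06% of all windows, and those windows lie wholly (Cldn7) or mostly (Ocln) downstream of the first start of the same gene. Tjp3 had a match at -108 before the first start and at -17 before the second, whose window lies wholly downstream of the first. No match was found in the windows of Cldn3, Tjp1 and Cgn or before the first starts of Cldn7 and Ocln. The windows of Tjp1 (chr7:65371245-65371494) and Cgn (chr3:94786483-94786732) are on the minus strand. Both lie inside the RefSeq spans of their genes, which reach upstream to 65527850 and 94787725. The search did not cover the upstream ends of these 2 genes. The letters AACNNGTT, searched on both strands and bound by grainyhead-like factors, matched once, in Cgn at -29, and in 3.64% of all windows. The E-box letters and these letters shared no bases in any window of the 10 genes. The GC content of the 12 windows ran from 43.2% to 70.4%, with a median of 52.4% over all windows. A match is a description of letters and not a binding site, and any part of these letters in the levels of the genes was not tested.

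**Figure D2:**
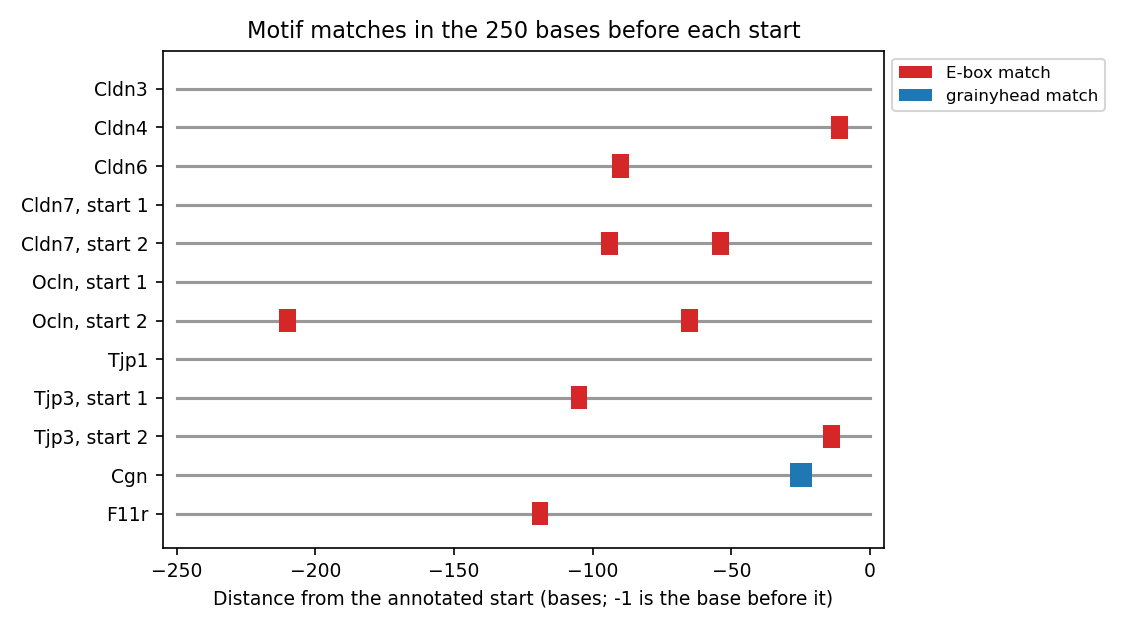
Positions of E-box and grainyhead letters in the 12 promoter windows of 9 genes, drawn to scale over the 250 bases before each start (horizontal axis, bases). E-box matches stand in 7 windows, and the windows of Cldn3 and Tjp1 hold neither motif.

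Among the other membrane proteins, occludin, a MARVEL protein of the strands, was measured by a pair of Ocln probe sets with the same order. The first read 441, 19.96 and 129 and the other read 619, 14.1 and 122. Endoderm was 3.43-fold above epiblast in the first and 5.10-fold in the other, and the bounds for endoderm over mesoderm were at least 5.47-fold and 7.68-fold. The epiblast itself was close to the floor, so that its excess over mesoderm is bounded only at 1.59-fold and 1.51-fold, and the call of Ocln below epiblast in mesoderm was lost when dim values were raised to the floor.

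Marveld3 encodes a MARVEL protein related to occludin. Its brightest probe set read 278, 14.1 and 242.5, with endoderm at least 3.45-fold and epiblast at least 3.01-fold above mesoderm. Endoderm and epiblast differed 1.15-fold, within the spread of probe sets. The other probe sets of Marveld3 read 50.3, 67.9 and 70.4, and 44.7, 31.2 and 31.3, all below the floor, so the pattern of this gene rests on 1 of 3 probe sets.

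F11r encodes junctional adhesion molecule A, an immunoglobulin-family protein of the junction. Its bright probe set read 2562, 444 and 1275, and it was the only gene besides Cldn3 and Tjp1 whose mesoderm signal was far above the floor. Epiblast was 2.87-fold and endoderm 5.77-fold above mesoderm. Endoderm was 2.01-fold above epiblast (log2 1.01), at the limit of a call, which was lost under quantile normalization, cyclic loess, centring of the arrays or an added 16 units. The second F11r probe set read 91.9, 80.3 and 90.7, close to the floor with no difference over 1.14-fold, and with the mean of both probe sets the gene was called neither against epiblast in endoderm (log2 difference 0.51) nor in mesoderm (-0.85).

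The plaque genes went different ways. Tjp1 encodes ZO-1, a scaffold that is used in adherens junctions as well as tight junctions, and was bright in every layer, at 3076, 2330 and 2734. Endoderm was 1.13-fold above epiblast and 1.32-fold above mesoderm, and epiblast was 1.17-fold above mesoderm. These log2 differences of 0.17, 0.40 and 0.23 lie near or below the spread between probe sets. The sign of endoderm against epiblast turned under quantile normalization and under centring of the arrays. The single probe set of Tjp1 is of the kind designed to read several transcripts of a gene, so splice forms were not told apart.

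Tjp3 encodes ZO-3, a relative of ZO-1 that is confined to epithelia in adult tissues. It was above the floor in endoderm alone, at 215, 35.2 and 71.0, which puts endoderm at least 2.67-fold above each of the other layers and gives no fold between mesoderm and epiblast. Cgn encodes cingulin, which links the plaque to actomyosin. Its bright probe set read 1078, 83.0 and 227, with mesoderm just above the floor, endoderm 4.75-fold above epiblast and 13.0-fold above mesoderm, and epiblast 2.73-fold above mesoderm. The second Cgn probe set read 51.2, 42.3 and 54.25, below the floor in every layer. With the mean of both, Cgn stayed called higher in endoderm (log2 1.08 over epiblast) and was not called lower in mesoderm than in epiblast (-0.90).

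Counted over the genes, 6 of 10 (Cldn6, Cldn7, Ocln, Tjp3, Cgn and F11r) were called higher in endoderm than in epiblast and 0 lower, where 12.6% and 3.98% of all 12626 genes above the floor in either layer were. Between mesoderm and epiblast, 7 of 9 genes above the floor were called lower in mesoderm and 0 higher, where 3.23% and 3.48% of 12338 genes were. Between endoderm and mesoderm, 8 of 10 were called higher in endoderm and 0 lower, where 11.7% and 3.91% of 12426 genes were. The median log2 difference of the junction genes was 1.30 for endoderm minus epiblast, -1.89 for mesoderm minus epiblast (9 genes) and 3.15 for endoderm minus mesoderm, with medians of 0.05, -0.02 and 0.08 over all genes above the floor. The medians that include mesoderm use values below the floor as deposited. The comparisons share arrays and are not independent of each other. Because the 10 genes were chosen with earlier results of these data known, the shares over all genes are a description and not a test.

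**Figure D3:**
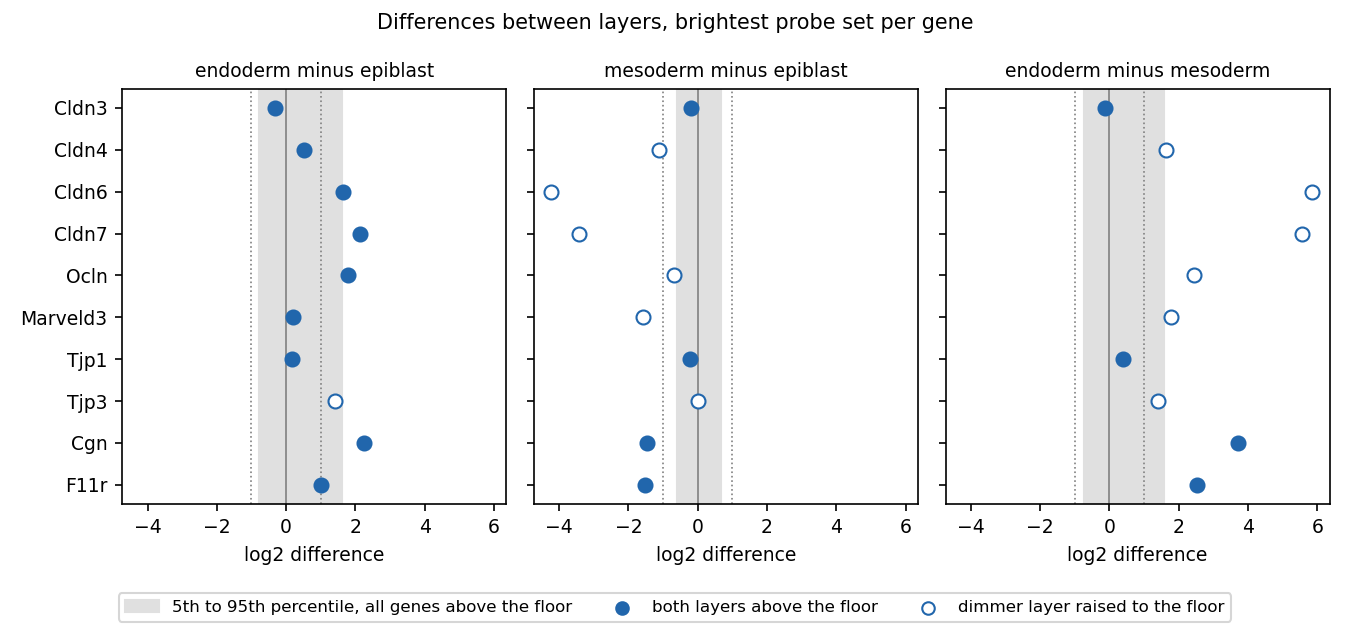
Log2 difference in intensity (horizontal axis) of the 10 genes for each pair of layers, with open points where a value below the floor was raised to it, dotted lines at the 2-fold limit and a grey band from the 5th to the 95th percentile of all genes above the floor. Cldn6 and Cldn7 lie furthest out against mesoderm, and Cldn3 and Tjp1 lie inside the band for each pair of layers.

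Claudins outside the 10 did not share one pattern. For the counts in this and the following lists, the shares of all genes called are those given above. Of 20 other claudins listed, 16 were named on the array, and 8 of these were above the floor in endoderm or epiblast. Cldn2, a pore-forming claudin, had the widest range of this list, at 3026, 114 and 51.6, so that endoderm exceeded epiblast at least 37.5-fold and mesoderm 26.6-fold. Its second probe set read 249, 156 and 171. Cldn8 was called higher in endoderm at 83.95, 15.6 and 27.25, though the bound was only 1.04-fold. Cldn12 read 1704, 1497 and 1228 and Cldn15 read 83.6, 77.05 and 95.2, both without a call. Cldn9, the neighbour of Cldn6 in the RefSeq order, had probe sets that disagreed, with 251, 179 and 215 in the one that stood for the gene and 344, 12.1 and 43.0 in the other. The median log2 difference of the list was 0.30 for endoderm minus epiblast, -0.11 for mesoderm minus epiblast (6 genes) and 0.34 for endoderm minus mesoderm. The last became -0.09 when arrays were centred, and with the floor at the 75th percentile of all values the medians were 3.17, 0.29 and 2.46. At that floor only Cldn2 and Cldn12 entered the medians with endoderm, and only Cldn12 that of mesoderm minus epiblast. These values therefore do not describe the list.

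The other tight junction membrane proteins were also mixed. Marveld2, which encodes tricellulin of the corners where 3 cells meet and is the RefSeq neighbour of Ocln, had the same order as Ocln, at 377, 18.5 and 141. Endoderm exceeded epiblast 2.68-fold and mesoderm at least 4.68-fold. Igsf5, a junctional immunoglobulin-family protein, was called higher in endoderm at 164, 30.3 and 23.15. Jam3 and Ildr2 went the other way. Jam3, a junctional adhesion molecule also made by cells outside epithelia, read 157, 506 and 455, and was 2.90-fold lower in endoderm than in epiblast. Ildr2, an angulin-family protein, read 77.2, 266 and 160, with endoderm below epiblast by a bound of at least 1.98-fold. Of 9 genes above the floor in endoderm or epiblast, 2 were called higher in endoderm and 2 lower, with a median log2 difference of 0.06. Of 8 for mesoderm against epiblast, Marveld2 alone was called, lower in mesoderm, with a median of -0.19. Crb3 had probe sets that disagreed. The one that stood for the gene read 646, 491 and 603 and was not called. The others were lowest in mesoderm, at 860, 31.7 and 296, and at 660, 169 and 304.

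For the plaque list, 22 of 24 genes were on the array and all 22 were above the floor. Against epiblast, 4 were higher in endoderm (Magi3, Patj, Mpp5 and Amot) and 1 lower (Mpdz), where 12.6% and 3.98% of all genes were. In mesoderm 2 were higher than in epiblast (Amot and Pard6g) and 0 lower, where 3.48% and 3.23% of all genes were. Against mesoderm, 4 were higher in endoderm (Magi3, Patj, Prkcz and Amot) and 2 lower (Mpdz and Amotl1), where 11.7% and 3.91% of all genes were. Amot, an angiomotin of the junctional polarity complex, read 8375, 3612 and 1502, and was 5.57-fold higher in endoderm and 2.40-fold higher in mesoderm than in epiblast. The other probe sets of Amot did not show this, at 156, 171 and 179, and at 128, 67.3 and 70.1. Patj, a scaffold of the Crumbs complex, read 853, 219 and 275, and Magi3 read 776, 373 and 242. Prkcz, an atypical protein kinase C of the polarity complex, read 216, 88.8 and 157 and was 2.43-fold higher in endoderm than in mesoderm. Mpdz, a multi-PDZ scaffold related to Patj, was 2.21-fold lower in endoderm than in epiblast at 600, 1286 and 1324. The list's medians were 0.32 for endoderm minus epiblast, 0.04 for mesoderm minus epiblast and 0.23 for endoderm minus mesoderm.

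Adherens junction and desmosome genes were mixed too. Of 16 above the floor, 3 were called lower in mesoderm than in epiblast (Cdh1, Jup and Epcam) and 2 higher (Cdh2 and Dsp), with a median of -0.02. Cdh1, which encodes E-cadherin, read 4562, 250 and 4021, and was 16.1-fold higher in epiblast and 18.3-fold higher in endoderm than in mesoderm, with 1.13-fold between endoderm and epiblast. Epcam, an epithelial adhesion molecule, read 4438, 381 and 3456. Cdh2, which encodes N-cadherin, was highest in mesoderm at 966, 2417 and 830. Dsc2, a desmosomal cadherin, read 1343, 147 and 194, and was 6.91-fold higher in endoderm than in epiblast. Jup, which encodes plakoglobin, read 675, 134 and 281, in the same order as Cldn6, Cldn7 and Cgn. Of the 16, 6 were higher in endoderm than in epiblast and 0 lower, with a median of 0.31, and 6 were higher in endoderm than in mesoderm and 1 (Cdh2) lower, with a median of 0.66.

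**Figure D4:**
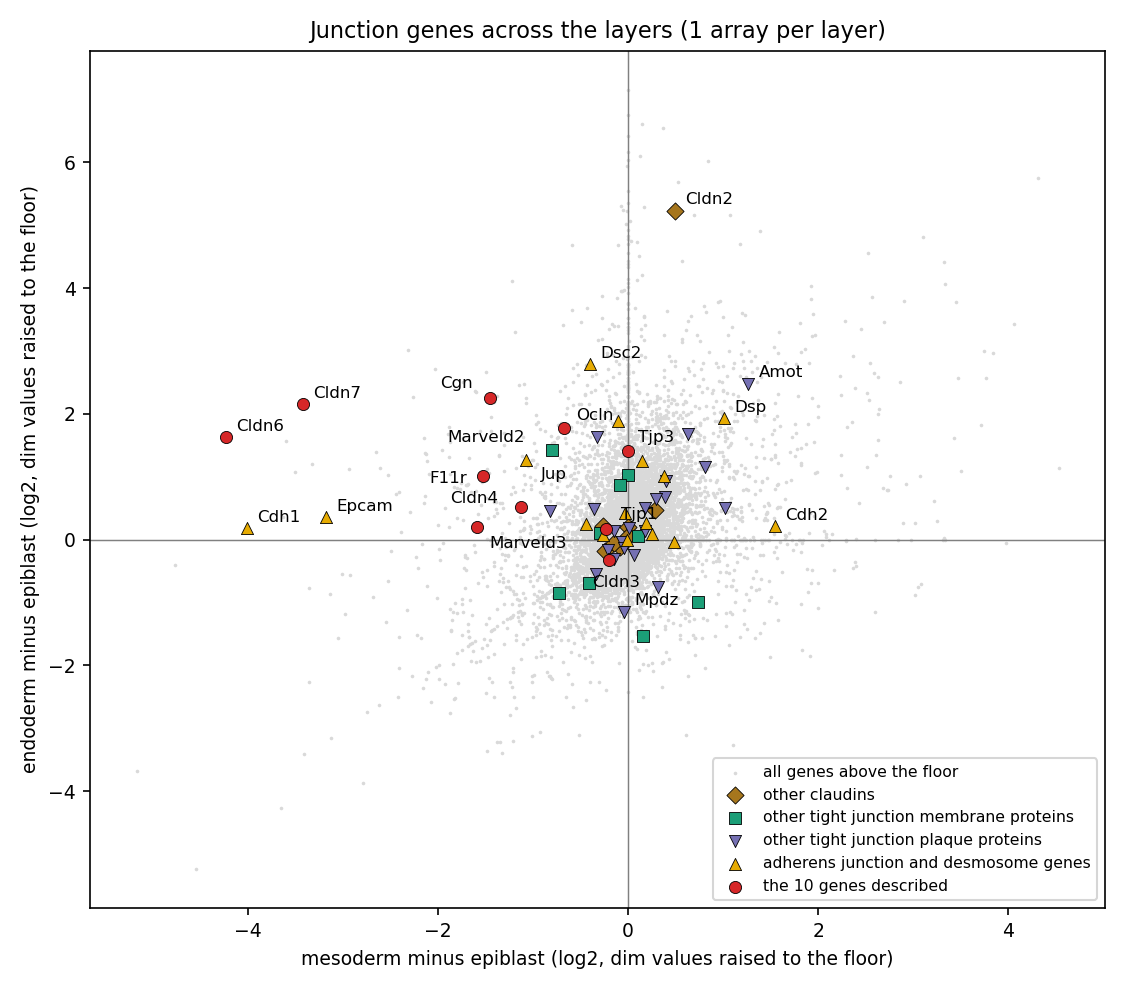
Log2 difference of endoderm minus epiblast (vertical axis) against mesoderm minus epiblast (horizontal axis) for the 10 genes and the lists of related junction genes (dim values at the floor), with all genes above the floor in grey. Cldn6, Cldn7, Cdh1 and Epcam lie furthest to the left of the junction genes shown, Cldn2 is highest of them, and Tjp1 and Cldn3 lie near the origin.

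Transcriptional and splicing regulators of epithelial junctions were read as a list of 17. Between mesoderm and epiblast, 5 of 14 above the floor were called higher in mesoderm (Klf4, Snai1, Snai2, Zeb1 and Twist1) and 3 lower (Grhl2, Klf5 and Esrp1), with a median log2 difference of -0.28, which turned to 1.29 with the floor at the 75th percentile. Snai2, a repressor that binds the E-box letters shown above, read 17.15, 802 and 52.2, or at least 9.95-fold higher in mesoderm than in the other layers. Twist1, a mesodermal basic helix-loop-helix factor, read 413, 1528 and 117. Snai1 read 51.0, 289 and 135, and Zeb1 read 71.45, 288 and 78.3 in the one probe set of 4 that was above the floor. Zeb2, a relative of Zeb1, had probe sets that disagreed. The one that stood for the gene read 154, 160 and 190 and was not called, while the other 4 were all highest in mesoderm, the brightest of them at 31.4, 332 and 134. Esrp1, an epithelial splicing regulator, read 1508, 94.9 and 1173. Grhl2, a grainyhead-like activator of junction genes, read 588, 137 and 615, and Klf5 read 512, 189 and 475. The other Grhl2 probe sets above the floor held no 2-fold difference, at 139, 137 and 143, and at 92.8, 95.5 and 115. Hnf4a, a nuclear receptor that is also on the visceral endoderm list, read 2471, 93.97 and 92.1. For endoderm minus epiblast, 5 were higher and 1 (Snai1) lower with a median of 0.43, and for endoderm minus mesoderm 8 of 16 were higher and 4 lower with a median of 1.01.

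The genes nearest in profile were found among 12785 genes, by the Euclidean distance of the log2 intensities over 3 layers with dim values raised to the floor. For Cldn6 the nearest were Cldn7 (distance 0.86), Grb7 (1.13), Eras, Tpd52 and Camsap3. For Cldn7 they were Grb7 (0.82), Cldn6 (0.86), Camsap3, Trh and Esrp1. Grb7, which encodes an adaptor of receptor tyrosine kinases, read 2462, 107 and 1074. For Tjp1 the nearest were Sdhb (0.066), Snap47, Timm8b, Acly and Gps1, and Sdhb, a subunit of a mitochondrial enzyme, read 2998, 2419 and 2724. When each gene was first centred on its own mean, 2 of the 5 genes for Cldn6, 3 for Cldn7 and 0 for Tjp1 were among the nearest again.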

How the data were processed

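Total RNA from 3 germ layers of E7.5 mouse embryos was labelled from 100 ng and hybridised to 1 array per layer. The authors deposited linear intensity values, with RMA named in the submitters' processing notes (version not given in the sources used here). RMA commonly returns log2 values. The step that made the deposited ones linear is not given, nor is the genome build of the array design. No background measure or detection call was used, and precision is limited by the number of arrays.

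Of 45037 probe sets, 34945 had 1 symbol in the platform annotation, 932 had several and 9160 were not named there. Entrez identifiers of 34741 matched RefSeq (0 symbols altered). Deposited intensities were converted to log2 with Python 3.11.15, numpy 2.4.6 and pandas 2.3.3, and subtracted between layers. Calls needed a 2-fold difference with the higher value above the floor. The test in the methods, Significance Analysis of Microarrays, needs replicates, so no p-values are given. The code that makes the calls was tested on simulated data, which says nothing of replicate error.

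The 10 genes and the lists (149 entries in 13 lists, 9 not among the named probe sets) were chosen with earlier results of these data known. Genes named in the text are the 10, up to 4 per list with the widest range and those called against the majority of their list, and the 5 nearest profiles of Cldn6, Cldn7 and Tjp1. Markers of the cell type lists were named by their values, as the brightest or as below the floor. Other genes, namely Krt7, Sox21, Hand1, Tfap2a, Dlx5, Cldn8, Crb3, Mpp5, Pard6g, Klf4, Zeb1 and Zeb2, were named after their values were seen. Markers of endothelium and blood summed to 665, 837 and 650, with 3, 3 and 2 of 9 above the floor. Pecam1 and Cdh5 were below the floor in every layer. Tal1 read 39.45, 266 and 74.8, at least 3.30-fold higher in mesoderm than in each other layer. The alternatives were other floors (the 75th percentile, none), dim values raised to the floor, limits of 3-fold and 1.5-fold, the mean of probe sets, the probe set of highest mean intensity, quantile and cyclic loess normalization (limma 3.58.1 in R 4.3.3), arrays centred on the median of genes above the floor, and 16 added to every intensity. Centring of profiles was added after seeing the data. Promoter windows came from RefSeq (GRCm38.p6).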

Additional observations from a re-analysis of the deposited data

How the results depend on the processing

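With the floor at the 75th percentile (intensity 286), the genes called lower in mesoderm than in epiblast were 3 in place of 7, those higher in endoderm than in mesoderm 5 in place of 8, those below both other layers in mesoderm 3 in place of 7, the other claudins called between any layers 1 in place of 2, and the other tight junction membrane proteins 2 in place of 4. The other claudins were also 1 with dim values raised to the floor and with arrays centred. The plaque proteins were 3 under the 3-fold limit and 4 with the mean of probe sets, in place of 8, and the other membrane proteins 7 under the 1.5-fold limit. The other 122 of 132 counts stayed within 1.5 times. A further 333 values were log2 differences of the 10 genes and, for Cldn6, Cldn7 and Tjp1, the overlaps of nearest profiles after centring. Of these, 0 reversed among called values, 294 kept within the spread of probe sets and 39 moved, the overlaps among them. Another floor or fold limit alone leaves a gene's log2 difference as it was, so those settings could not move it. Likewise, another fold limit could not move a list median, while another floor changes which genes enter it. Of 165 list medians 10 moved further than the spread of probe sets. Beside those of the other claudins, the regulator medians became 0.99 (endoderm minus epiblast), 1.29 (mesoderm minus epiblast) and 0.25 (endoderm minus mesoderm) with the higher floor and -0.61 (mesoderm minus epiblast) with the mean of probe sets, and the membrane protein medians became 0.40 (endoderm minus mesoderm, higher floor) and 0.10 (mesoderm minus epiblast, mean of probe sets), both from below 0. Without a floor Tjp3 was also called lower in mesoderm than in epiblast. Uncalled differences of Marveld3 and Tjp1 (endoderm minus epiblast, quantile normalization and centring) and of Cldn3 (endoderm minus mesoderm, mean of probe sets) changed sign. Centring moved the median of all genes for endoderm minus epiblast from 0.05 to -0.25 and quantile normalization to -0.11. The cause of these moves was not tested. Signal near the floor limits Cldn4, Ocln, Marveld3 and Tjp3 most. No paired analysis was possible because each layer has 1 array and no test was made.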
